A study of Mus musculus with 8 samples.

Results

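The transcription factors followed here are 10 that are known from the development and identity of striatal neurons of the mouse: Foxp1, Foxp2, Bcl11b, Isl1, Meis2, Ebf1, Sp9, Six3, Zfp503 and Rarb. They were taken by gene name and make up 10 of the 32285 genes of the deposited count matrices. The study measured nuclear RNA and open chromatin in the same nuclei of frozen striatum from 8 inbred strains of 12-week-old mice. The 32 mice were processed in 4 batches, and each batch was 1 pool of 8 mice, 1 of each strain, with 4 males and 4 females. Each strain therefore has 4 mice, and the labels name no treatment and no engineered allele. The strains are WSB/EiJ, PWK/PhJ, CAST/EiJ, A/J, NOD/ShiLtJ, NZO/HlLtJ, 129S1/SvImJ and a C57BL/6 substrain. The deposited table of nuclei writes that substrain as C57BL/6NJ and the series text as C57BL/6J, and the table's form is used here, as for NZO/HlLtJ, which the series text spells NZO/H1LtJ. The WSB/EiJ, PWK/PhJ and CAST/EiJ strains are wild-derived, and NOD/ShiLtJ and NZO/HlLtJ are used as models of diabetes and obesity.

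The striatum is built largely from GABAergic projection neurons, which fall into a direct pathway class that expresses the dopamine receptor Drd1 and an indirect pathway class that expresses Drd2. Most of them arise in the lateral ganglionic eminence, where factors such as Meis2, Six3 and Sp9 act in progenitors and newborn neurons, while Bcl11b and Foxp1 act later in projection neuron differentiation. Isl1 and Ebf1 are known for the direct pathway class, Sp9 and Six3 for the indirect pathway class, and Rarb and Zfp503 act in retinoid-dependent growth of striatal neurons.

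The authors' annotation assigns 55672 of the 89339 barcodes to a mouse and to 1 of 18 clusters, with 944 to 4416 nuclei a mouse (median 1613) and a median of 4329 unique molecular identifiers (UMIs) a nucleus. Batch 3 was the shallowest, with a median of 3232 UMIs against 4593 to 4931 in the other 3 batches. Barcode sequences that also occur in another batch mark 3048 of these nuclei. The Drd1+ neuron cluster holds 15395 nuclei and the Drd2+ neuron cluster 13203. Drd1 stood at 219 CPM (counts scaled to the total of the library) in the first and 10.2 in the second, and Drd2 at 11.9 and 437. A further cluster, named Drd1+ neuron_2 by the authors, holds 1506 nuclei and had 184 CPM of Drd1. The 5 markers of eccentric projection neurons (Otof, Casz1, Tshz1, Col11a1 and Cacng5) summed to 1050 CPM there and to 60.9 CPM in Drd1+ neurons. The cluster named Unknown (861 nuclei) carried the neuroblast genes Dcx at 348 CPM and Sox11 at 445 CPM.

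The 10 factors divided the striatum in different ways, and 4 of them separated the projection neuron classes by a wide margin: Isl1 and Ebf1 on the Drd1+ side, Sp9 on the Drd2+ side, and Foxp2, whose highest level lay in Drd1+ neuron_2. Foxp1, Bcl11b, Meis2, Six3 and Rarb were present in both main classes at levels within a factor of 1.5 of each other. Levels below are means of CPM over mice with at least 10 nuclei of the cluster. A level is compared across clusters and not between genes, since nuclear counts include unspliced RNA and the files give no length. The clusters were made from the same nuclei, so differences between them are described and not tested.

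**Figure D1:**
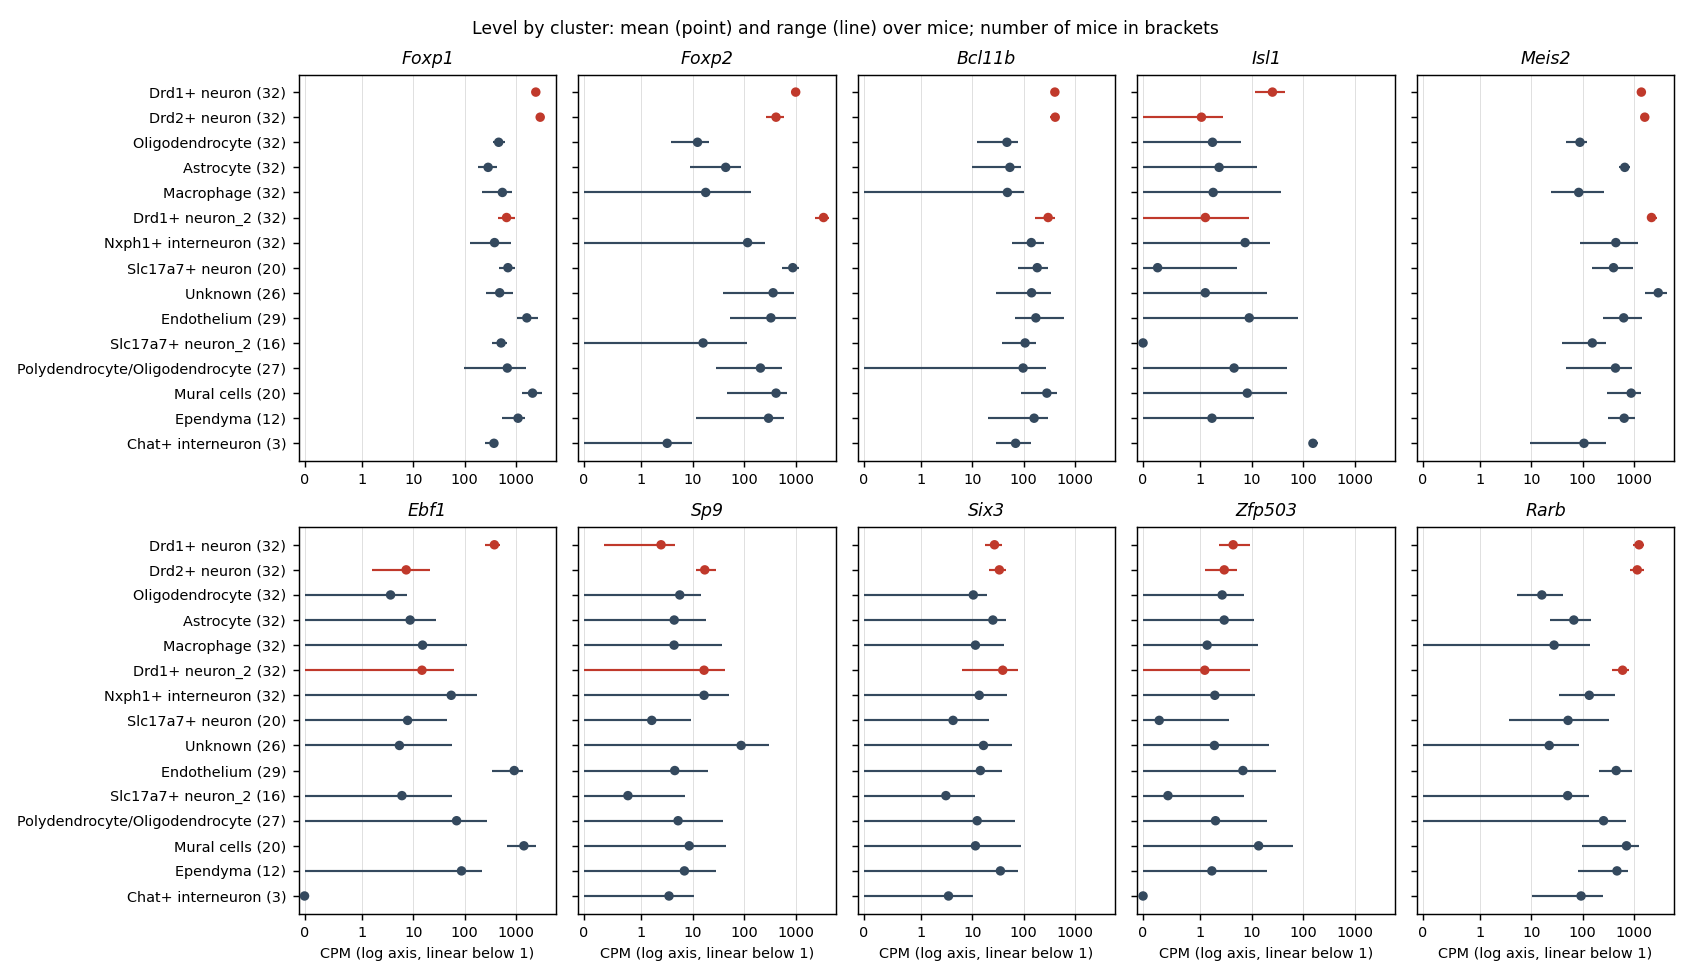
Level of each factor by cluster in CPM (log axis, linear below 1), with the mean over mice as a point and the range as a line; red marks the 3 projection neuron clusters. Isl1 is highest in Chat+ interneurons and Drd1+ neurons, Ebf1 in mural cells, endothelium and Drd1+ neurons, Sp9 and Meis2 in the cluster named Unknown, and Foxp2 in Drd1+ neuron_2.

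Foxp1, a forkhead repressor needed for projection neuron maturation, was highest in Drd2+ neurons at 2910 ± 161 CPM (SD, n = 32 mice; lowest 2579, median 2901, highest 3247). In Drd1+ neurons it stood at 2391 ± 153 CPM (2095, 2385 and 2677). The ranges of both clusters overlap over mice, but within each mouse the Drd2+ value was the higher one. Drd1+ neuron_2 had 647 ± 129 CPM (442, 643 and 949), below every mouse of both main classes. Mural cells followed Drd1+ neurons at 2065 ± 436 CPM (n = 20), a gap smaller than the spread, and endothelium had 1601 ± 451 CPM (n = 29). The 20 projection neuron identity genes summed to 5929 CPM in mural cells and 3229 CPM in endothelium, against 7132 CPM in Drd1+ neurons and 1410 to 1521 CPM in oligodendrocytes, macrophages and astrocytes, with all 20 detected in mural cells. Their part in the levels of the factors in vascular cells was not tested. Astrocytes had the lowest level of Foxp1 among the 15 clusters with at least 3 mice, 284 ± 59.7 CPM.

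Foxp2, its paralog and the factor tied to vocal and motor learning, had a different order. Drd1+ neuron_2 had 3455 ± 465 CPM (lowest 2372, median 3431, highest 4436), Drd1+ neurons 995 ± 84.1 CPM (816, 992 and 1166) and Drd2+ neurons 413 ± 79.9 CPM (265, 403 and 593). These 3 ranges do not overlap. The excitatory cluster Slc17a7+ neuron, at 873 ± 164 CPM (n = 20), was within the spread of Drd1+ neurons, and oligodendrocytes had 12.4 CPM. Bcl11b (CTIP2), a zinc finger factor of projection neuron differentiation, was 407 ± 38.2 CPM in Drd2+ and 401 ± 31.6 CPM in Drd1+ neurons, a difference within the spread over mice. It was 296 ± 52.5 CPM in Drd1+ neuron_2 and 47.1 CPM in oligodendrocytes.

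Isl1, a LIM homeodomain factor of direct pathway and cholinergic neurons, was highest in Chat+ interneurons at 154 ± 34.0 CPM, where 3 mice had enough nuclei (134, 135 and 193 CPM). Drd1+ neurons had 25.2 ± 8.11 CPM (n = 32; lowest 11.7, median 23.8, highest 44.96). Drd2+ neurons had 1.05 ± 0.675 CPM, with 3 mice at 0, so no Drd2+ library reached the lowest Drd1+ library. At least 1 Isl1 UMI was seen in 13.7% of Drd1+ nuclei (95% exact binomial interval 13.2% to 14.3%), 64.2% of Chat+ nuclei (54.9% to 72.7%) and 0.614% of Drd2+ nuclei (0.488% to 0.762%). Oligodendrocytes, which should lack it, had 0.290%, and the median depths were 6505 UMIs in Drd1+, 5953 in Drd2+ and 1640 in oligodendrocyte nuclei. With nuclei thinned to 1000 UMIs (10 of the Drd1+, 10 of the Drd2+ and 986 of the oligodendrocyte nuclei were shallower and left out), the shares were 2.47%, 0.0929% and 0.171%. The Drd2+ share thus lay below that of oligodendrocytes when thinned and above it unthinned, so whether it is background is not settled by these shares. In Drd1+ neuron_2 only 9 Isl1 counts were found, and Slc17a7+ neuron_2 had 0, which allows up to 0.793 CPM. These intervals and limits cover counting error only.

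Ebf1, an early B cell factor family member of direct pathway neurons, was 376 ± 64.6 CPM in Drd1+ neurons (lowest 252, median 381, highest 487) and 7.29 ± 3.98 CPM in Drd2+ neurons (1.61, 6.76 and 21.2). The 2 classes did not overlap, and the Drd2+ level was within the spread of that of astrocytes, 8.68 ± 7.40 CPM. Mural cells had 1404 ± 493 CPM (n = 20) and endothelium 912 ± 230 CPM (n = 29), which differed by less than their spread and stood above every neuron cluster. A UMI of Ebf1 was present in 76.5% of Drd1+, 2.43% of Drd2+, 1.116% of astrocyte and 0.622% of oligodendrocyte nuclei, and after thinning in 29.2%, 0.465%, 0.550% and 0.340%. Drd1+ neuron_2, which expressed Drd1, had 14.8 ± 14.6 CPM of Ebf1, with 8 of 32 mice at 0.

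Sp9, a zinc finger factor needed for indirect pathway neurons, stood at 17.1 ± 3.47 CPM in Drd2+ neurons (lowest 11.5, median 17.2, highest 27.7) and 2.42 ± 1.02 CPM in Drd1+ neurons (0.354, 2.46 and 4.48), without overlap. Drd1+ neuron_2 (16.6 ± 9.53 CPM) and Nxph1+ interneurons (16.6 ± 13.7 CPM) were within the spread of Drd2+ neurons, and the cluster named Unknown was highest at 86.8 ± 60.3 CPM (n = 26). The thinned share of nuclei with a UMI was 1.70% in Drd2+, 0.235% in Drd1+ and 0.562% in oligodendrocyte nuclei. Unthinned, the shares were 9.54%, 1.58% and 0.912%. The Drd1+ share thus lay below that of oligodendrocytes when thinned and above it unthinned, so whether it is background is not settled by these shares. Six3, a homeodomain factor of the same lineage, stood at 33.5 ± 6.15 CPM in Drd2+ and 27.0 ± 5.01 CPM in Drd1+ neurons, a step just beyond the spread, and at 39.0 ± 15.3 CPM in Drd1+ neuron_2. Astrocytes, at 25.1 ± 9.92 CPM, were within the spread of Drd1+ neurons. Six3 is overlapped by the antisense gene Six3os1 in the annotation and the strand used in counting is not given in the sources used here, so its counts are uncertain.

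Meis2, a TALE homeodomain factor of the ganglionic eminence, was highest in the cluster named Unknown at 2910 ± 736 CPM (n = 26; lowest 1593, median 2990, highest 4292). Drd1+ neuron_2 had 2154 ± 254 CPM, Drd2+ neurons 1595 ± 95.1 CPM and Drd1+ neurons 1370 ± 84.5 CPM, and each of these steps was larger than the spread. Astrocytes had 652 ± 86 CPM and oligodendrocytes 88.1 CPM. Rarb, the retinoic acid receptor with a known role in striatal growth, stood at 1236 ± 177 CPM for the Drd1+ class and 1141 ± 193 CPM for the Drd2+ class, within the spread of each other. It was 592 ± 103 CPM in Drd1+ neuron_2, 66.9 ± 30.7 CPM in astrocytes and 16.01 CPM in oligodendrocytes. Zfp503 (Nolz1), a retinoid-regulated repressor, was sparse in both classes, with 4.35 ± 1.50 CPM (433 counts) for the Drd1+ and 2.92 ± 0.959 CPM (228 counts) for the Drd2+ class. The gene A330001L22Rik overlaps it, so that its counts carry the same doubt as those of Six3. Foxp1, Foxp2, Meis2 and Rarb overlap 1 to 5 other annotated genes each, and their counts were likewise not checked for shared reads. None of the 14 steps in the order of clusters for Zfp503 was larger than the spread. Clusters with fewer mice of enough nuclei stay outside these orders. In Sst+ interneurons Rarb was 914 and 1123 CPM and Sp9 37.4 and 41.6 CPM in the 2 mice measured, so Rarb there was within the range of projection neurons.

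Within mice, where each Drd2+ library was set against the Drd1+ library of the same animal, Sp9 (log2 ratio 2.59 ± 0.66, SD over mice), Foxp1 (0.31 ± 0.06) and Meis2 (0.24 ± 0.05) were higher in Drd2+ neurons in all 32 mice. Ebf1 (-5.67 ± 0.70) and Foxp2 (-1.26 ± 0.28) were lower in all 32. Isl1 passed the filter on low counts through Drd1+ neurons alone, with 87 counts over the 32 Drd2+ libraries, so it had to be lower there and its ratio (-3.91 ± 0.74) depends on the prior count, a small number added before the ratio is taken. Sp9 passed through Drd2+ neurons alone, since its 257 counts in Drd1+ neurons were fewer than the 433 of Zfp503, which did not pass. The filter thus favored the direction of Sp9 as well. Of all 11937 genes compared, 2.03% were higher and 1.87% lower in every mouse, which describes the comparison and is not set against a count of factors. By the thinned shares above, the lower of both levels lay below that of oligodendrocytes for Isl1 and Sp9, and by the unthinned shares above it. These ratios may thus have a background level on 1 side and give no exact fold. For Ebf1 the thinned Drd2+ share (0.465%) lay above that of oligodendrocytes (0.340%) and below that of astrocytes (0.550%), so whether it is background is not settled by these shares. Six3 was higher in Drd2+ neurons in 29 mice (0.33 ± 0.25) and Rarb lower in 30 (-0.09 ± 0.06). Bcl11b was higher in 24 mice (0.04 ± 0.09), or in 17 mice (0.02 ± 0.08) when the libraries were scaled by their totals alone, and both means are smaller than the spread over mice. Zfp503, which did not pass the filter, was lower in 28 mice.

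Set against Drd1+ neurons in the same way, Drd1+ neuron_2 had more Foxp2 (1.74 ± 0.20) and Meis2 (0.59 ± 0.15) in all 32 mice. It had less Foxp1 (-1.96 ± 0.28), Bcl11b (-0.51 ± 0.24) and Rarb (-1.119 ± 0.19) in all 32. Isl1, Ebf1 and Sp9 rest on 9, 109 and 120 counts in Drd1+ neuron_2, too few for the strain test of that cluster. Isl1 and Ebf1 entered the comparison through Drd1+ neurons. The ratios of Isl1 (-3.83 ± 1.11) and Ebf1 (-5.45 ± 1.88) therefore depend on the prior count. Among the 9491 genes compared, 2.71% were higher and 4.39% lower in every mouse. Sp9 was higher in 30 mice (2.02 ± 1.15) and Six3 in 26 (0.36 ± 0.69). Sp9 passed the filter through Drd1+ neuron_2, since its 257 counts in Drd1+ neurons were fewer than the 433 of Zfp503, which did not pass. The filter thus favored the direction of Sp9. The levels of Isl1, Ebf1 and Sp9 in this Drd1-expressing cluster were within the spread of those in Drd2+ neurons. This comparison was chosen after the values were seen.

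**Figure D2:**
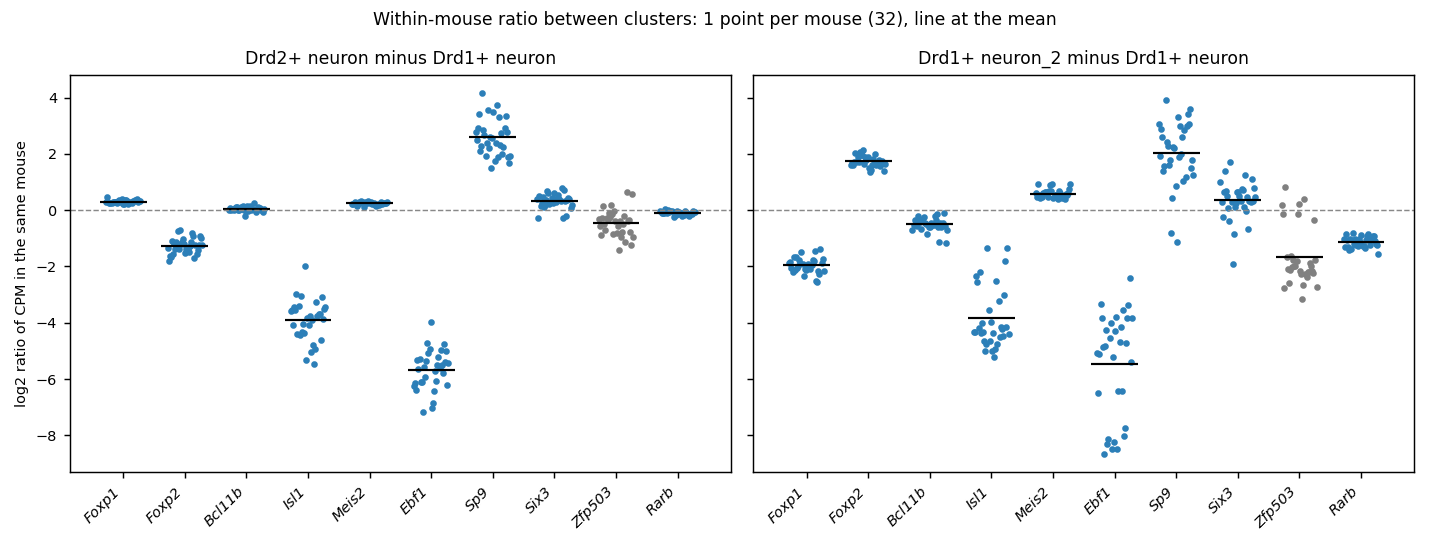
Log2 ratio of CPM between 2 clusters of the same mouse for each factor, 1 point for each of 32 mice and a line at the mean; the left panel sets Drd2+ neurons and the right panel Drd1+ neuron_2 against Drd1+ neurons, and gray marks Zfp503, which did not pass the filter. Foxp2 lies below 0 in every mouse on the left and above 0 on the right, and the ratios of Isl1 in both panels and of Ebf1 and Sp9 on the right rest on few counts and depend on the prior count.

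Related genes are given for comparison, as a description, since a gene that passes the filter through only 1 of the clusters has to differ. Of 20 paralogs and partners of the factors, 10 passed the filter. Meis1, a paralog of Meis2, was higher in Drd2+ neurons in all 32 mice (1.33 ± 0.44), Foxp4 was lower in all 32 (-0.78 ± 0.46), and none of the other 8 had 1 direction in all 32. Of 28 other ganglionic eminence or striatal factors, 18 passed. Ikzf2 (2.08 ± 0.48) and Zfhx3 (1.02 ± 0.20) were higher and Zfp521 (-4.27 ± 0.58) and Ikzf1 (-3.29 ± 0.83) lower in all 32. Zfp521 is known for direct pathway neurons. Of 20 projection neuron identity genes, 19 passed, and 7 were higher and 3 lower in all 32. Drd1 and Drd2, which name the clusters, are among these, so their direction is not a result. Of all genes compared, 2.03% were higher and 1.87% lower in every mouse. The medians of the 3 lists were 0.05, 0.07 and 0.04, against -0.001 for all genes. In Drd1+ neuron_2, 9 paralogs and partners passed, and those higher than in Drd1+ neurons in all 32 mice included the MEIS partner Pbx3 (1.196) and the retinoid X receptor Rxrg (1.23). Of 15 other ganglionic eminence or striatal factors, Tshz1 (3.38 ± 0.35), also one of the eccentric markers, was higher and Zfhx3 (-2.50 ± 0.91) lower in all 32. Of 16 identity genes, Penk was higher (1.56 ± 0.58) and 7 were lower in all 32, beside 2.71% and 4.39% of all genes.

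The start regions of 4 of these factors are shown because Isl1, Ebf1 and Sp9 separate the projection neuron classes and Rarb had the smallest adjusted p for strain below. Each is the 250 bases before a start listed in RefSeq GRCm38.p6, the C57BL/6J build, written 5′ to 3′ on the gene's strand. Capitals mark matches to a searched motif: the CCAAT box (CCAAT), the GC box (GGGCGG) or a DR5 retinoic acid response element, on either strand.
Isl1: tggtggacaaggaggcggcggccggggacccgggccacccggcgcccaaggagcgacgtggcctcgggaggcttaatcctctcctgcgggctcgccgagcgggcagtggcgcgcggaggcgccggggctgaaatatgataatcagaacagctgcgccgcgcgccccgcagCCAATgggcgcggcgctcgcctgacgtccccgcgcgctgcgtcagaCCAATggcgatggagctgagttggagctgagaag
Ebf1: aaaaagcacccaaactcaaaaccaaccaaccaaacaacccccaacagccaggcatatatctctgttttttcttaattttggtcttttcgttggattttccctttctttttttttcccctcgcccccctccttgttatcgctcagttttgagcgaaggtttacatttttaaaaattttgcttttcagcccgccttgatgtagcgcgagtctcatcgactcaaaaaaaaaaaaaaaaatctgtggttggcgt
Sp9: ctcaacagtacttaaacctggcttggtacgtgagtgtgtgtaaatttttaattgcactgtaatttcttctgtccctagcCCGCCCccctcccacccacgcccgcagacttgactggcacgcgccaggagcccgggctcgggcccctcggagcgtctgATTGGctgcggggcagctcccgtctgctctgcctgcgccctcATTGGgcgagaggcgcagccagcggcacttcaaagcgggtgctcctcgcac
Rarb: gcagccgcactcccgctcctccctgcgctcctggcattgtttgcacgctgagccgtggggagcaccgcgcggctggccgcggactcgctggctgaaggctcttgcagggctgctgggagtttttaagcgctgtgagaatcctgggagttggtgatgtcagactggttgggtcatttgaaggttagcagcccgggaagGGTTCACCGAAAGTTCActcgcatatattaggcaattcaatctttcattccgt
The Isl1 window lies at chr13:116309689-116309938 on the minus strand, with CCAAT boxes starting 80 and 34 bases before the start, 71.2% G and C and 33 CpG. The Ebf1 window, chr11:44617850-44618099 on the plus strand, held none of the searched motifs, with 40.0% G and C and 9 CpG. The Sp9 window, chr2:73271676-73271925 on the plus strand, held a GC box 171 bases and CCAAT boxes 93 and 51 bases before the start. The Rarb window, chr14:16575477-16575726 on the minus strand, held the DR5 element 53 bases before the start, which is known as the site through which retinoic acid receptors act on this gene. Over all 32817 windows of this length, 33.8% held a CCAAT box, 32.7% a GC box and 29 windows (0.0884%) a DR5 element, and the median was 52.4% G and C and 6 CpG. The forkhead motif GTAAACA (3.16% of windows), the homeodomain motif TAATTA (4.85%), the palindromic EBF motif (0.780%), the MEIS motif TGACAG (15.9%), the receptor motif AGGTCA (14.0%) and the TATA box TATAAA (12.4%) were also searched and not found in these 4 windows. The CCAAT box and the DR5 element were added to the search after the windows were seen. A match describes letters and not binding.

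The deposited index of 291715 accessible regions is 1 merged list without values per mouse. Counted over each gene and the 2000 bases upstream of it, Foxp1 (chr6:98925342-99522746) held 189 regions, Rarb (chr14:16430839-17082331) 166, Meis2 (chr2:115861264-116067537) 70, Ebf1 (chr11:44618100-45008096) 56 and Bcl11b (chr12:107910403-108004145) 32. Foxp2 (chr6:14901349-15441977) held 97, counted without the bases upstream. The short genes Six3, Isl1, Zfp503 and Sp9 held 5, 4, 3 and 2. Per 100 kb that is 14.3 (Ebf1) to 39.3 (Zfp503), against a median of 16.3 over 17492 genes, so 9 of the 10 factors lay above that median. Starts were taken from the RefSeq promoter table, which does not list every start of a gene: that of Rarb, for example, lies inside the gene. A region covered the 1 listed start each of Isl1, Sp9, Rarb and Bcl11b, 1 of 2 listed for Ebf1 and 1 of 3 for Foxp1. No region covered the listed start of Meis2, Six3 or Zfp503, and 48.3% of all listed starts were covered. Six3, Zfp503 and Meis2 each had at least 3 regions within 5 kb of that start. The index gives no values, so these regions are not compared between cell types or strains.

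Across strains, Rarb and Ebf1 had the smallest adjusted p of the factors tested in both Drd1+ and Drd2+ neurons, and the number of factors called was near or below the share of all genes there. The test asks whether any of the 8 strains differs, with counts summed per mouse and cluster, batch as a term, and edgeR's quasi-likelihood test with Benjamini-Hochberg adjustment over all genes of the cluster (called at an adjusted p under 0.05). In Drd1+ neurons 7 of 10 factors were called (4 without batch as a term), where 61.7% of all tested genes were. In Drd2+ neurons 4 of the 9 tested were called (44.4%), against 55.9% of all genes. The first share is near that of all genes and the second below it, so neither is a result about the factors as a group. P-values measure the spread between mice. Values by strain below are CPM of the genes that passed the filter, scaled by trimmed means (TMM) within the cluster. They are thus not on the scale of the levels by cluster above, which use all counts of a library. Sums of marker genes by strain use all counts too. The reads of all strains were counted on 1 reference build per the submitters' processing notes. CAST/EiJ and PWK/PhJ had the most genes called against the other strains (32.8% and 34.3% in Drd1+ and 28.1% and 30.3% in Drd2+ neurons, against 12.3% to 19.7% and 11.1% to 18.5% in the other 6 strains). Sex was not a term in the fit. The parts of the reference and of sex in strain differences were not tested.

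Rarb in Drd1+ neurons was 1641, 1528, 1448 and 1506 CPM in the 4 A/J mice (batches 1 to 4) and 1434, 1600, 1414 and 1562 in C57BL/6NJ. The 4 PWK/PhJ mice had 948, 1013, 935 and 929 CPM, below all 28 other mice, which ranged from 1040 to 1641. The PWK/PhJ mean was lower than the mean of the other 7 strains by 0.42 on the log2 scale (log2 difference -0.42 ± 0.05, SE; adjusted p = 1.57e-09). A/J was higher by 0.36 ± 0.05 (adjusted p = 2.66e-08) and C57BL/6NJ by 0.33 ± 0.05 (adjusted p = 3.5e-07). Drd2+ neurons showed the same strains at the ends: A/J had 1651, 1440, 1319 and 1491 CPM, C57BL/6NJ 1353, 1550, 1356 and 1460, and PWK/PhJ 881, 894, 790 and 831. The PWK/PhJ mice again lay below all 28 others (958 to 1651). The log2 differences were -0.48 ± 0.05 for PWK/PhJ (adjusted p = 4.96e-10), 0.43 ± 0.05 for A/J (2.58e-09) and 0.38 ± 0.05 for C57BL/6NJ (1.12e-07). The strain term had an adjusted p of 1.47e-12 in Drd1+ and 1.54e-13 in Drd2+ neurons, and the interaction of strain with the 2 classes was not called (adjusted p = 0.359).

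In Drd1+ neuron_2 the span of Rarb was similar, from 813 ± 70.0 CPM in C57BL/6NJ (767 to 917) to 543 ± 62.1 CPM in PWK/PhJ (451 to 586; SD, n = 4 mice each; adjusted p = 7.94e-04 for the strain term). Astrocytes had another order. PWK/PhJ had 157, 96.9, 116 and 117 CPM there and CAST/EiJ 106, 111, 94.7 and 92.7, while WSB/EiJ had 37.7, 60.5, 46.3 and 23.9. The PWK/PhJ and WSB/EiJ ranges did not overlap, and the strain with the lowest mean in Drd1+ neurons had the highest mean in astrocytes. The strain term for astrocytes had an adjusted p of 8.78e-07. An interaction test of strain with Drd1+ neurons and astrocytes, added after these values were seen, gave an adjusted p of 2.28e-08 for Rarb, where 11.4% of 14301 genes were called. The 20 projection neuron identity genes in astrocytes summed to 1277 ± 320 CPM in PWK/PhJ and 1425 to 1556 CPM in the other strains, and the 4 Drd1+ markers to 233 ± 70.2 CPM in PWK/PhJ and 181 to 232 CPM in the others. PWK/PhJ thus had the lowest of the first and the highest of the second sum, both by less than the spread. The 4 astrocyte markers summed to 9047 to 11010 CPM.

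**Figure D3:**
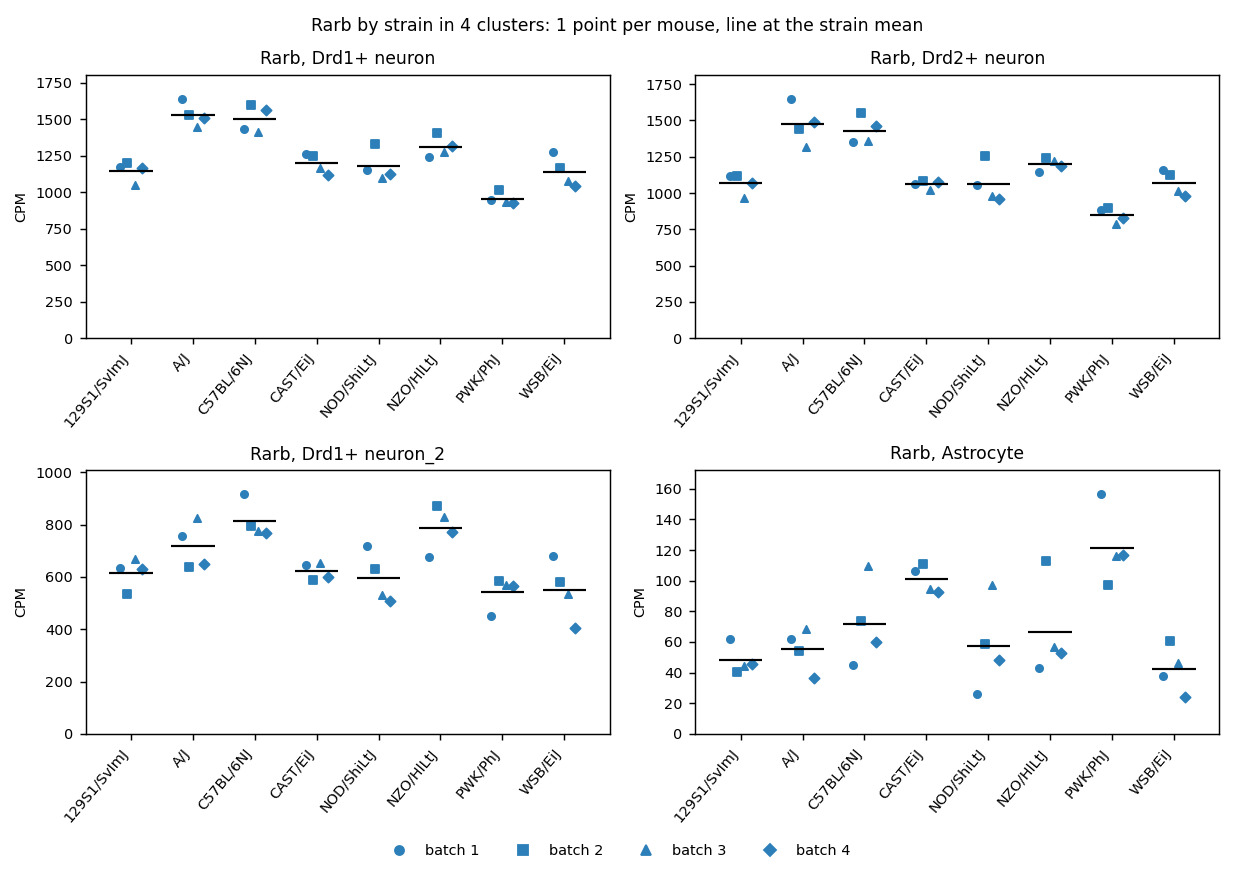
Rarb in CPM by strain in Drd1+ neurons, Drd2+ neurons, Drd1+ neuron_2 and astrocytes, 1 point per mouse with the batch as its shape and a line at the strain mean. PWK/PhJ is lowest in the 3 neuron clusters and highest in astrocytes (122 CPM on average).

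Ebf1 in Drd1+ neurons was 478, 482, 470 and 498 CPM in A/J and 302, 246, 243 and 248 CPM in PWK/PhJ, with the other 6 strains between 309 and 470. The PWK/PhJ mice lay below all 28 others. The log2 difference from the other 7 strains was -0.60 ± 0.07 for PWK/PhJ (SE; adjusted p = 3.52e-10), 0.42 ± 0.06 for A/J (3.07e-07) and 0.23 ± 0.06 for NOD/ShiLtJ (0.005), the last with an adjusted p of 0.0965 without batch 4. In Drd2+ neurons, where Ebf1 is near the glial level, CAST/EiJ had 16.8, 11.5, 11.1 and 21.1 CPM and the 28 other mice 1.70 to 11.5. The CAST/EiJ difference was 1.30 ± 0.22 (adjusted p = 8.74e-06) and rests on 125 counts, with 40 to 134 counts in the other strains. Drd1 in these Drd2+ nuclei was 13.9 ± 5.47 CPM in CAST/EiJ and 8.79 to 10.8 CPM in the others, and Tac1 61.9 ± 7.79 CPM and 41.9 to 61.1 CPM. Of the 4 Drd1+ markers in these nuclei, Eya1 stood at 4.24 CPM in CAST/EiJ and 2.58 to 13.2 CPM in the others, and Pdyn at 4.73 and 2.34 to 3.92 CPM. The part of such RNA in the CAST/EiJ value was not tested. The interaction of strain and class had an adjusted p of 0.0171 for Ebf1, where 4.58% of 13791 genes were called. That call was lost without batch 1 (adjusted p = 0.0887), without batch 3 (0.103) and with DESeq2 (0.0693).

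Foxp2 in Drd2+ neurons was highest in NZO/HlLtJ (432, 534, 507 and 600 CPM) and lowest in 129S1/SvImJ (423, 279, 288 and 317 CPM), and these ranges did not overlap (adjusted p = 0.0054 for the strain term). The C57BL/6NJ mice were spread from 312 to 574 CPM. Against the other 7 strains, NZO/HlLtJ was higher by 0.38 ± 0.10 (SE; adjusted p = 0.0121) and 129S1/SvImJ lower (-0.38 ± 0.11; 0.0321). Both calls and the strain term were lost without batch 4 (0.134, 0.192 and 0.149). Without batch 3 the contrasts had adjusted p of 0.0841 and 0.107, and without batch 2 that of 129S1/SvImJ was 0.184. In Drd1+ neurons the order differed: NZO/HlLtJ had 1071 ± 125 CPM, and C57BL/6NJ and WSB/EiJ had 911 ± 59.2 and 912 ± 49.4 CPM (SD, n = 4 each; strain term 0.00197). The ratio of Drd2+ to Drd1+ ran from -1.61 ± 0.20 in 129S1/SvImJ to -0.99 ± 0.32 in C57BL/6NJ on the log2 scale. The interaction had an adjusted p of 0.0183, but 0.136 without batch 2, 0.118 without batch 3 and 0.405 without batch 4. In Drd1+ neuron_2 Foxp2 had its lowest mean, 3245 ± 454 CPM, in WSB/EiJ and its highest in C57BL/6NJ, 4269 ± 482 CPM (strain term 0.00157; 0.0513 without batch 2 and 0.0736 without batch 3).

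Foxp2 in astrocytes was 90.5, 69.2, 47.3 and 86.3 CPM in CAST/EiJ and 13.3, 23.3, 31.7 and 14.1 CPM in PWK/PhJ, ranges that did not overlap, while their Drd1+ means were 1047 and 997 CPM. The astrocyte values rest on 510 counts over 32 mice. Drd1 stood at 24.0 CPM in astrocytes and 219 CPM in Drd1+ neurons, and the part of neuronal RNA in the Foxp2 values was not tested. The astrocyte strain term had an adjusted p of 4.51e-04 (0.0702 without batch 4) and the added interaction of Drd1+ neurons and astrocytes 7.22e-05. Of the 6 factors tested in astrocytes, 3 were called (Foxp1, Foxp2 and Rarb), against 21.5% of all genes. Meis2 was not called by edgeR (0.122), but was with DESeq2 (0.013), with libraries of at least 30 nuclei (0.0249) and without batch 3 (0.0338). Its adjusted p over all alternatives lay between 0.013 and 0.647. Foxp1 ran there from 242 ± 32.8 CPM in NOD/ShiLtJ to 349 ± 73.5 CPM in PWK/PhJ (adjusted p = 0.00743; 0.194 without batch 2 and 0.131 without batch 4).

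**Figure D4:**
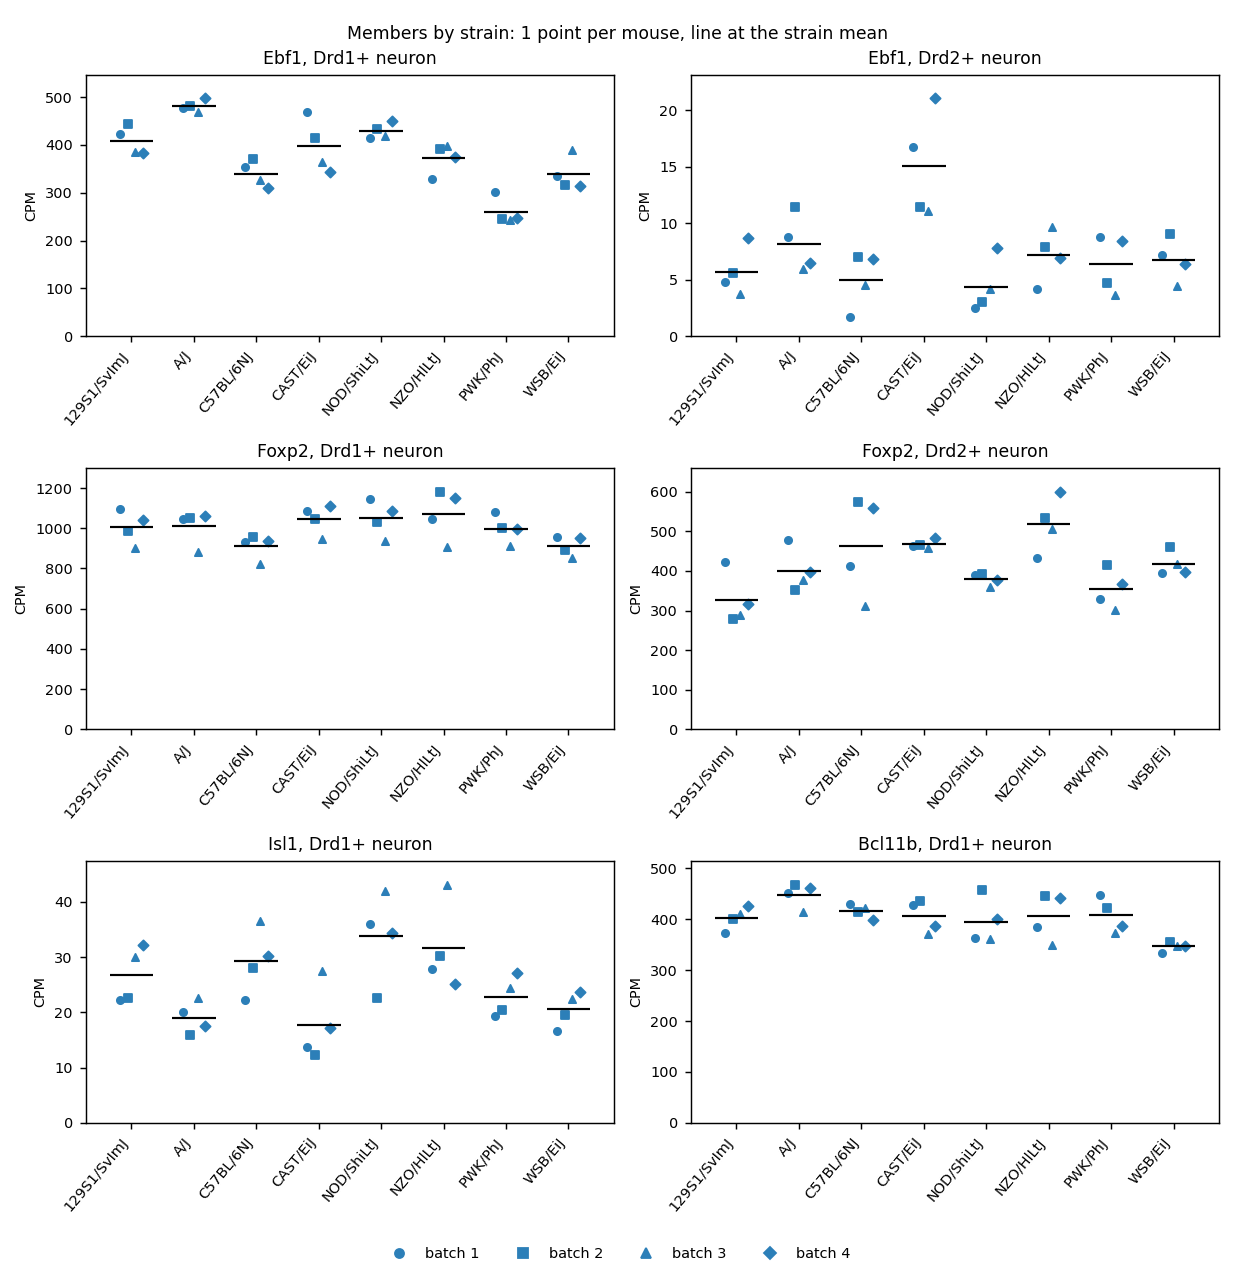
Ebf1 and Foxp2 in Drd1+ and Drd2+ neurons and Isl1 and Bcl11b in Drd1+ neurons by strain in CPM, 1 point per mouse with the batch as its shape and a line at the strain mean. Ebf1 is lowest in PWK/PhJ in Drd1+ neurons and highest in CAST/EiJ in Drd2+ neurons, and Bcl11b is lowest in WSB/EiJ.

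Isl1 in Drd1+ neurons was 36.1, 22.6, 42.1 and 34.3 CPM in NOD/ShiLtJ and 13.7, 12.3, 27.6 and 17.2 CPM in CAST/EiJ (strain term adjusted p = 3.54e-07). The ranges overlap, but NOD/ShiLtJ was the higher in each of the 4 batches. Against the other 7 strains, NOD/ShiLtJ (log2 difference 0.52 ± 0.11, SE; adjusted p = 6.54e-04) and NZO/HlLtJ (0.43 ± 0.11; 0.00272, or 0.0532 without batch 3) were higher, and CAST/EiJ (-0.59 ± 0.12; 1.98e-04) and A/J (-0.41 ± 0.11; 0.00518) lower. A/J thus had the highest Ebf1 and one of the 2 lowest Isl1 means of Drd1+ neurons. Bcl11b was highest in A/J and lowest in WSB/EiJ in both classes. In Drd1+ neurons A/J had 451, 468, 414 and 462 CPM and WSB/EiJ 335, 356, 347 and 348, and in Drd2+ neurons 445, 483, 443 and 498 against 351, 352, 324 and 351, without overlap in either. The WSB/EiJ differences from the other 7 were -0.25 ± 0.06 in Drd1+ (SE; adjusted p = 9.17e-04) and -0.28 ± 0.06 in Drd2+ neurons (4.39e-04). The A/J differences were 0.18 ± 0.05 (0.0127) and 0.22 ± 0.06 (0.00428), and were lost without batch 4 (0.081 and 0.053), the first also without batch 1 (0.0665) and batch 2 (0.0504).

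Foxp1 and Meis2 differed by small steps. In Drd1+ neurons Foxp1 was lowest in WSB/EiJ at 2210 ± 93.8 CPM and highest in A/J at 2624 ± 258 CPM (adjusted p = 0.00821; 0.188 without batch 1), and Meis2 from 1275 ± 62.4 CPM in 129S1/SvImJ to 1478 ± 133 CPM in A/J (0.0291; 0.28, 0.202 and 0.0767 without batch 1, 2 and 4). In Drd2+ neurons neither passed by edgeR (0.0569 and 0.0712), while DESeq2 called both (0.021 and 0.0232), and Foxp1 was also called without the filter on low counts (0.0259). Over all alternatives the adjusted p in Drd2+ neurons ran from 0.021 to 0.455 for Foxp1 and from 0.0232 to 0.329 for Meis2. In Drd1+ neuron_2 Foxp1 was lowest in PWK/PhJ at 528 ± 53.4 CPM (478 to 603) and highest in C57BL/6NJ at 860 ± 136 CPM (734 to 1050; 6.87e-04), without overlap. There 3 of 6 tested factors were called (Foxp1, Foxp2 and Rarb), against 17.3% of all genes. Six3, Sp9 and Zfp503 were called in no cluster where they were tested, with adjusted p of 0.327, 0.661 and 0.174 in Drd1+ and 0.0515, 0.358 and 0.999 in Drd2+ neurons, and Sp9 and Zfp503 rest on few counts. Six3 in Drd2+ neurons had an adjusted p of 0.00566 without batch 3. Isl1 did not pass the filter on low counts in Drd2+ neurons.

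Of the 80 contrasts of a factor and a strain in Drd1+ neurons, 16 were called, against 20.4% of all gene contrasts, and in Drd2+ neurons 8 of 72, against 17.7%. By strain in Drd1+ neurons, of 10 factors A/J had 5 called (17.2% of all genes there) and WSB/EiJ 3 (17.0%; all lower: Foxp1, Foxp2 and Bcl11b). C57BL/6NJ (13.9%), NOD/ShiLtJ (15.9%) and PWK/PhJ (34.3%) had 2 each, and CAST/EiJ (32.8%) and NZO/HlLtJ (19.7%) 1 each. 129S1/SvImJ (12.3%) had 0 by edgeR (3 at an unadjusted p under 0.05, and 1, Rarb, with DESeq2). The 2 in PWK/PhJ, Ebf1 and Rarb, were both lower. The Foxp1 differences of A/J (0.14) and WSB/EiJ (-0.14) and the Foxp2 differences of C57BL/6NJ and WSB/EiJ (both -0.15) were each lost in 3 or more of the 4 fits that left out 1 batch.

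**Figure D5:**
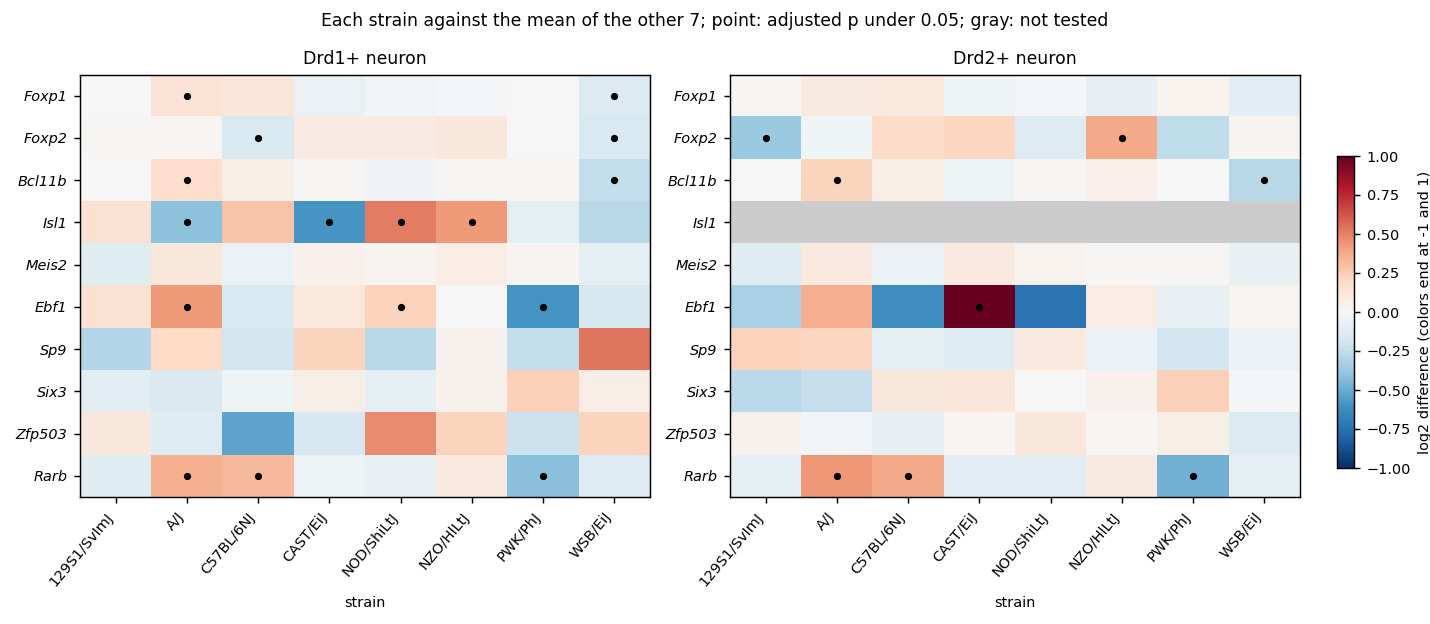
Log2 difference of each strain from the mean of the other 7 for each factor in Drd1+ neurons (left) and Drd2+ neurons (right); a point marks an adjusted p under 0.05, gray was not tested, and colors end at -1 and 1, which Ebf1 in CAST/EiJ Drd2+ neurons (1.30) exceeds. Rarb is low in PWK/PhJ and high in A/J and C57BL/6NJ in both classes.

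In the other clusters with enough mice, few factors were called. Oligodendrocytes had 1 of 6 (Meis2, adjusted p = 0.0364; background 34.8%), lost in 3 of 4 fits without 1 batch (0.0738, 0.129 and 0.294 without batch 1, 2 and 4). Nxph1+ interneurons had 1 of 6 (Rarb, from 57.1 CPM in NOD/ShiLtJ to 348 CPM in A/J; 0.0362; background 1.53%), lost without batch 1 (0.13), batch 2 (0.248) and batch 3 (0.165). Foxp1 (274 to 758 CPM), Foxp2 (74.2 to 223.5 CPM) and Bcl11b (124.9 to 203 CPM), not called, had the same 2 end strains there, and Meis2 and Ebf1 had others. The part of the mix of cells in these values was not tested. No factor was called by edgeR of 2 in macrophages, 6 in endothelium and 6 in the Polydendrocyte/Oligodendrocyte cluster, where 24.8%, 3.23% and 1.24% of all genes were. At an unadjusted p under 0.05 these were 1 (Foxp1), 1 (Foxp2) and 2 (Bcl11b and Ebf1), and DESeq2 called 0, 1 (Foxp2) and 1 (Ebf1). On simulated 2-fold changes in 1 strain, without batch effects, the test recovered 64.6%, 8.21% and 1.04% of changed genes in these 3 clusters. Such differences were thus mostly not detectable in the last 2. Of the genes called in these simulations, 3.08%, 15.8% and 0.0% had not been changed.

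Among related genes, the strain term called 5 of 11 tested paralogs and partners in Drd1+ and 6 of 11 in Drd2+ neurons, 13 of 18 and 11 of 17 other ganglionic eminence or striatal factors, and 17 of 19 and 15 of 19 projection neuron identity genes. Of all genes, 61.7% were called in Drd1+ and 55.9% in Drd2+ neurons. The shares were 45.5% and 54.5% for the paralogs and partners, 72.2% and 64.7% for the other factors and 89.5% and 78.9% for the identity genes. For the first 2 lists they lay only a few genes from the shares of all genes, and no difference was tested. The median span between the highest and the lowest fitted strain in Drd1+ neurons was 0.53 on the log2 scale for the 10 factors, 0.62, 0.70 and 0.81 for the 3 lists and 0.65 for all genes. Foxp4, the paralog of Foxp1 and Foxp2, had its lowest Drd1+ mean in PWK/PhJ, 3.54 CPM, and its highest in NOD/ShiLtJ, 13.3 CPM (adjusted p = 2.04e-06). Meis1 ran from 36.5 to 74.1 CPM (0.0374). Satb1 was lowest in WSB/EiJ, 8.54 CPM, and highest in NZO/HlLtJ, 37.0 CPM (1.18e-13), and Tshz2 and Ikzf2 from 5.06 to 21.2 CPM (0.0151) and from 1.98 to 4.59 CPM (0.0232), both lowest in C57BL/6NJ. Of the identity genes, Eya1 was lowest in PWK/PhJ, 7.45 CPM, and highest in A/J, 50.5 CPM (1.94e-08), the same 2 end strains as Ebf1 and Rarb, Penk ran from 79.0 to 194 CPM (2.94e-09) and Chrm4 from 1.37 to 4.09 CPM (0.0311). In Drd2+ neurons Rara, the paralog of Rarb, ran from 0.825 CPM in C57BL/6NJ to 6.00 CPM in CAST/EiJ (0.0019). Foxp4 and Meis1 were called there too (0.0392 and 0.00557), as were Tshz2 (1.79e-06), Satb1 (6.28e-13), Zfp521 (9.61e-04) and Eya1 (1.06e-07). The highest strain means of Rara, Foxp4 and Zfp521 there and of Chrm4 and Ikzf2 in Drd1+ neurons were 6.00 CPM or lower. Their spans thus rest on few counts a mouse. Rasd2 was highest in PWK/PhJ at 150 CPM and lowest in NZO/HlLtJ at 64.2 CPM (6.79e-13).

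Across the 18 clusters, the genes whose level was most like each factor were found by Pearson's r of log2(CPM + 1) among 15710 genes. The 18 points share mice, pools and depth, so r is a description. Foxp1 was most like Strn (0.887), Chst15 (0.881) and Coch (0.865), Foxp2 like Ptk7 (0.825), Kcnk2 (0.820) and Dph6 (0.791), and Bcl11b like Smpd3 (0.924), Neto2 (0.924) and Prkar2b (0.910). Isl1 was most like Slc17a8 (0.762), the vesicular glutamate transporter of cholinergic interneurons, and Gm2990 and Insrr. Meis2 was most like G630016G05Rik (0.958), a non-coding gene that overlaps it by 313 bases, and then Gm16701 and Mn1. Ebf1 was most like Gm12158 (0.899), Btg3 (0.798) and Dock6 (0.788). Sp9 was most like Dlx2 (0.845), a homeobox factor of the ganglionic eminence, with Gm14204 and Pwp1 next. Whether reads in the overlap of Meis2 and G630016G05Rik bear on their likeness was not tested. Six3 was most like Fam117a (0.847), Zfp503 like 1700037H04Rik (0.844), Ssr1 and Tagln, and Rarb like 4930525C09Rik (0.949), Gm9989 (0.939) and Gm10754 (0.926). Among the factors themselves, Bcl11b and Rarb were the most alike (0.763), followed by Foxp2 and Meis2 (0.741), Bcl11b and Meis2 (0.711), Foxp1 and Rarb (0.707) and Foxp2 and Bcl11b (0.702). Spearman's rho gave 15 of the same 30 genes.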

How the data were processed

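Nuclei came from the 10x Multiome assay. The deposited matrices hold UMI counts per gene and barcode, unnormalized, and the submitters' processing notes name bcl2fastq 2.20.0.422, Cell Ranger ARC 2.0.0 and the build GRCm38 (mm10). Per the deposited file descriptions, the authors assigned each droplet to a strain with Demuxlet on the RNA and on the accessibility reads, filtered nuclei on detected genes and mitochondrial share, ran DoubletFinder, and left out some remaining nuclei for their biology before naming clusters. The 55672 nuclei with a cluster name were used as annotated. Their strain from RNA and accessibility reads was identical, and no further doublet caller or filter was applied. Of the accessibility data only the merged index of regions was used here.

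Counts were summed per mouse and cluster (at least 10 nuclei) and fitted with edgeR 4.0.16 in R 4.3.3 (filterByExpr, TMM, robust quasi-likelihood with 7 degrees of freedom for strain, batch as a term), or, for interactions, with the mouse as a block. Clusters needed 3 mice of every strain. Log2 ratios used a prior count of 2. The batch is the replicate number, and every batch holds every strain by design, so it pairs the mice. On simulated 2-fold changes in 1 strain the fit recovered 84.8% of changed genes in Drd1+ neurons (12994 genes) and 74.9% for the interaction (13136 genes). Of the genes called, 6.67% and 3.95% had not been changed. The simulated counts held no batch effects. Promoters and gene positions came from RefSeq GRCm38.p6. Foxp2 has no promoter entry. Median totals were 3011717 counts for Drd1+, 2425596 for Drd2+ and 360351 for astrocyte libraries. Alternatives were RLE scaling, no filter, DESeq2 1.42.0, no replicate block, at least 30 nuclei, libraries thinned to 1251786 counts and leaving out each batch. The members and gene lists were chosen with earlier results of these data known. All 10 members are named throughout, of each list the 3 called genes with the widest span of strain means, and the 3 most alike genes of each member among those of at least 10 CPM in 1 cluster. Some genes that these rules select are not reported here. Other genes named where clusters are compared were picked after their values were seen, since the rule covers strain differences only.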

Additional observations from a re-analysis of the deposited data

Results flagged for a closer look

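Groups of 4 mice of 1 strain were examined for the factors called by the strain term in Drd1+ and in Drd2+ neurons. In 5 of 88 groups, 1 mouse stood apart from the other 3, where chance gives about 1 in 20. The groups share mice and are not independent. The rule sets the gap to the nearest mouse against the range of the 4, so a small gap can be flagged. In Drd1+ neurons, the A/J mouse of batch 3 had 2239 CPM of Foxp1 beside 2717 to 2798 CPM, and 882 CPM of Foxp2 beside 1047 to 1062 CPM. The PWK/PhJ mouse of batch 1 had 302 CPM of Ebf1 beside 243 to 248 CPM, and still lay below all mice of other strains. In Drd2+ neurons, Bcl11b was 418 CPM in the C57BL/6NJ mouse of batch 2 beside 426 to 427 CPM, and 324 CPM in the WSB/EiJ mouse of batch 3 beside 351 to 352 CPM.

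For 4 results a test of whether the difference between strains differs between cell types passed its threshold, 2 of them not stably. Between Drd1+ and Drd2+ neurons the interaction had an adjusted p (edgeR's quasi-likelihood test) of 0.0183 for Foxp2 and 0.0171 for Ebf1. That of Foxp2 was lost in 3 of the 4 fits that left out 1 batch (0.136, 0.118 and 0.405), and that of Ebf1 in 2 of 4 (0.0887 and 0.103) and with DESeq2 (0.0693). Between Drd1+ neurons and astrocytes it was 7.22e-05 for Foxp2 and 2.28e-08 for Rarb. The latter test was added after the strain orders in both cell types had been seen, so it describes a pattern already noticed and is no independent evidence of it.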

How the results depend on the processing

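Batch served as the replicate block in the fits of single clusters. Without it, the count of factors with a strain difference in Drd1+ neurons went from 7 to 4. Foxp1, Foxp2 and Meis2 then had adjusted p of 0.157, 0.151 and 0.156 by edgeR. The strain contrasts there went from 16 to 10, and that of A/J for Isl1 was lost (0.0639). Oligodendrocytes and Nxph1+ interneurons went from 1 to 0 each, and Polydendrocyte/Oligodendrocyte from 0 to 1. The interaction had the mouse as its block. Without that block, the interaction of Drd1+ and Drd2+ neurons went from 2 factors to 1 (Foxp2 at 0.17) and from 631 genes to 69. Without a filter on low counts the counts were 0 in oligodendrocytes, 2 in Nxph1+ interneurons and 1 each in macrophages, endothelium and Polydendrocyte/Oligodendrocyte. With DESeq2 they were 6 in Drd2+ neurons (with Foxp1 and Meis2) and 4 in astrocytes (with Meis2), 0 in oligodendrocytes, 1 in endothelium, 1 in Polydendrocyte/Oligodendrocyte and 1 in the interaction. With libraries thinned to 1 total, 5407 genes were called in Drd1+ neurons in place of 8283. Leaving out 1 batch gave 5 to 7 factors in Drd1+ neurons, 3 to 5 in Drd2+ neurons, 0 to 1 in oligodendrocytes, macrophages and Nxph1+ interneurons, 1 to 4 in astrocytes, 2 to 4 in Drd1+ neuron_2, 10 to 16 contrasts in Drd1+ and 6 to 8 in Drd2+ neurons, 0 to 1 factors and 421 to 488 genes in the interaction, and 2 to 3 factors and 1011 to 1462 genes (in place of 1633) in the added one. For Bcl11b in oligodendrocytes, not called, the highest and the lowest strain changed places without batch 4 (adjusted p = 0.973), with 0.763 to 0.992 over the fits that left out 1 batch. Further calls were gained for Foxp1 in oligodendrocytes without batch 2 (0.027), for Bcl11b in Drd1+ neuron_2 without batch 1 (0.0293), and for Foxp1 in the added interaction with RLE scaling (0.0188) and without batch 3 (0.00155). The cause of these changes was not tested.

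TMM scaling across clusters gave 3938 CPM for Foxp1 in Drd2+ neurons, 4041 for Foxp2 in Drd1+ neuron_2, 551 for Bcl11b in Drd2+ and 1653 for Rarb in Drd1+ neurons. The totals in this scaling were those of the genes that passed the filter. Thinned to 500 UMIs, the share with a UMI was 1.25% for Isl1 and 16.5% for Ebf1 in Drd1+ and 0.857% for Sp9 in Drd2+ nuclei. Unthinned it was 13.7% and 0.614% for Isl1 in Drd1+ and Drd2+, 76.5% and 2.43% for Ebf1, and 1.58% and 9.54% for Sp9. Spearman's rho gave 15 of the 30 most alike genes. All 90 alternatives of the within-mouse ratios kept their direction, which few counts fix for Isl1 and, in Drd1+ neuron_2, for Ebf1. For Sp9 the filter favored that direction in both comparisons. Depth limits Zfp503, Sp9 and, outside Drd1+ and Chat+ nuclei, Isl1.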
